A study of Homo sapiens with 36 samples.

Results

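Mucins are the heavily O-glycosylated proteins that coat the intestinal lining, and 10 mucin genes were followed here: the gel-forming MUC2, MUC5AC and MUC5B, and the cell-surface MUC1, MUC3A, MUC4, MUC12, MUC13, MUC17 and MUC20. They were taken by symbol from the 60591 genes of the mRNA count table, and each symbol matched a single row. Gel-forming mucins are secreted by goblet cells, polymerise end to end and swell into mucus. Transmembrane mucins stay on the apical membrane of enterocytes, where they build the glycocalyx, and several of them carry a cytoplasmic tail that takes part in signalling. Sugars are attached in the Golgi, first a single N-acetylgalactosamine and then the core, the extension and the terminal sialic acid or fucose.

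The libraries came from Caco-2 and HT-29, 2 established human colorectal cancer lines. Caco-2 had been kept for 21 days in a medium that lets the cells differentiate into an enterocyte-like layer, and HT-29 was grown without such a period, so line and culture state cannot be told apart. Each line received 300 µM CoCl2, 5 µM of the oxyquinoline derivative 4896-3212 (labelled Oxy, here OD) or, as control, 0.5 µl dimethyl sulfoxide per ml, for 24 h, with 3 libraries in each of the 6 groups. Both agents block the prolyl hydroxylases that mark the hypoxia-inducible factor (HIF) for degradation, and the study used them as chemical models of hypoxia in normal air. The labels give dimethyl sulfoxide for the control and for OD and water for the CoCl2 stock. The paper's methods add the solvent to CoCl2 medium too, and put its dose at 0.5%, where the labels have 0.5 µl per ml. A solvent difference therefore cannot be told apart from the agent in CoCl2 against control. The labels do not say whether replicates came from separate cultures, and p-values then measure the spread between these libraries.

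Total counts per library ran from 12925719 to 22332639. NDRG1, a textbook HIF target, was higher in every treated group, by 2.87 (CoCl2) and 2.46 (OD) on the log2 scale in Caco-2 and by 5.97 and 2.82 respectively in HT-29. VEGFA, another HIF target, was called higher in 3 of the 4, by 1.39 and 1.21 in Caco-2 and 1.86 under CoCl2 in HT-29, and came to 0.80 under OD in HT-29. All 7 enterocyte markers exceeded 3 counts in every Caco-2 control library, with a summed level of 3503 to 3940 CPM (counts scaled to a common library size). In HT-29 controls 4 of the 7 did, with a sum of 219 to 225 CPM and ALPI and SLC15A1 at or under 3 counts. Of 8 goblet markers, 4 exceeded 3 counts in every Caco-2 control library and 5 in every HT-29 control library. Of 7 markers of other cell types (leukocytes, fibroblasts, endothelium), 4 exceeded 3 counts in every Caco-2 control library and 2 in every HT-29 control library, with sums of 33.1 to 39.8 and 2.78 to 3.94 CPM. In Caco-2 their sum was 18.1 to 22.2 CPM under CoCl2, where 2 of the 3 tested were called lower (14.2% of all genes were). Under OD it was 22.4 to 27.4 CPM there, with 1 of 3 called lower (7.27%). In HT-29 the sum was 2.46 to 3.80 CPM under CoCl2, with 1 of 2 called lower (23.9%). Under OD it was 6.26 to 7.45 CPM in HT-29, with 1 of 2 called higher (9.5%). PTPRC and COL1A2 stayed at or under 3 counts in every library, and the part of the others in the mucin results was not tested. In bulk RNA, fewer cells that carry a transcript and less of it per cell cannot be told apart.

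The genes lie in 3 neighbourhoods and at 2 single sites, by GENCODE v44 on GRCh38. On chromosome 11, MUC2, MUC5AC and MUC5B share the forward strand over 187 kb, from base 1074875 to 1262172. On chromosome 7, MUC3A, MUC12 and MUC17 share the forward strand over 109 kb, from 100949534 to 101058859, with gaps of 1217 and 1132 bases between them. On chromosome 3, MUC20 (195720884 to 195741123, forward strand) and MUC4 (195746765 to 195811973, reverse strand) face each other across 5641 bases. MUC13 is alone on the reverse strand of chromosome 3 (124905442 to 124953819), and MUC1 on that of chromosome 1 (155185824 to 155192916).

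Promoter windows of 300 bases, from 250 bases before to 50 after the RefSeq start, were found for 7 of the 10 genes (build GRCh38.p14). MUC5AC, MUC5B and MUC20 had none in the table. The windows of MUC13, MUC17, MUC3A and MUC2 are shown because MUC13 and MUC17 were the mucins raised by CoCl2 in HT-29, MUC3A adjoins MUC17 in its cluster with another course, and MUC2 is the one gel-former with a window. Capitals mark the core of the hypoxia response element (ACGTG or GCGTG) and the AP-1 site (TGANTCA), each searched on both strands. MUC13 is at chr3:124934702-124935001 (reverse strand), MUC17 at chr7:101019831-101020130, MUC3A at chr7:100949284-100949583 and MUC2 at chr11:1074624-1074923 (all forward). The MUC13 window lies inside the gene as GENCODE v44 places it, whose reverse-strand start is base 124953819. It therefore shows the RefSeq start of MUC13 and not the GENCODE one.
MUC13: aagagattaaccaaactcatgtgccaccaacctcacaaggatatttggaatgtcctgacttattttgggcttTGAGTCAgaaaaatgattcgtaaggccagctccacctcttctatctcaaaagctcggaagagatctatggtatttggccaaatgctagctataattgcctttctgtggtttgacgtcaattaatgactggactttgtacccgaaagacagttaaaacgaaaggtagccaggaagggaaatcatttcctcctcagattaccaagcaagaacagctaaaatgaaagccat
MUC17: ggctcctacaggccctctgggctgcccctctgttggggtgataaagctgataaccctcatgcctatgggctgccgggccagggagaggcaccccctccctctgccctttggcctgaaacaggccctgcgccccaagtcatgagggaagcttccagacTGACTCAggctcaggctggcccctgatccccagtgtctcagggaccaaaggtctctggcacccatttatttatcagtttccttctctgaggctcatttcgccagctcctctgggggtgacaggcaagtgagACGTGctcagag
MUC3A: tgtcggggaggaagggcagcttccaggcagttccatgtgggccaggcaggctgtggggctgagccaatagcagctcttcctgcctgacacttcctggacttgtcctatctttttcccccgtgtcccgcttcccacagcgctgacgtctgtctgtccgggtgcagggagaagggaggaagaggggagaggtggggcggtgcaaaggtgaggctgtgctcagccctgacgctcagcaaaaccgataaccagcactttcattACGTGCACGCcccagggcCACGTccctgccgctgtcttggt
MUC2: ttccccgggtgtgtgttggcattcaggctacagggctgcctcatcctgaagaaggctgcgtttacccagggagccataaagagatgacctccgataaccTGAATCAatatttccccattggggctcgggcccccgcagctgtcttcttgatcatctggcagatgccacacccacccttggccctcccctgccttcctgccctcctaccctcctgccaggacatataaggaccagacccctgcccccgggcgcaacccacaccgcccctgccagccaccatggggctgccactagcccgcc
The hypoxia core was in 4 of the 7 windows, namely those of MUC3A, MUC4, MUC12 and MUC17, and in 48.4% of all 35116 windows of that length. MUC3A held 3 matches, which begin 10, 15 and 28 bases after the start, the first and the second adjoining. MUC17 held 1, at base 39. The AP-1 letters were in MUC2, MUC13 and MUC17, at 151, 178 and 93 bases before the start, and in 7.71% of all windows. A search for the metal response core (TGCACNC or TGCGCNC) matched MUC2, MUC3A and MUC17, against 29.6% of all windows, and 1 of the 2 matches in MUC3A overlaps its hypoxia cores. These are matches of letters, not measured sites.

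In control cells the lines differed in nearly every mucin. Per length, MUC13, a transmembrane mucin of the gut surface, stood first in both lines, at 37.9 ± 1.55 RPKM (CPM per kilobase of transcript, SD, n = 3) in Caco-2 and 82.0 ± 1.61 in HT-29. Caco-2 then held MUC17 (12.4 ± 0.789 RPKM) and MUC3A (4.37 ± 0.392), 2 glycocalyx mucins of the enterocyte brush border, and the other 7 lay at or under 0.290 RPKM. HT-29 held MUC5AC, best known from the stomach and airways, at 7.59 ± 0.750 RPKM, followed by MUC20 (3.74 ± 0.570), MUC3A (3.12 ± 0.411) and MUC2 (1.80 ± 0.159), the main gel-former of the colon. MUC20 and MUC3A did not separate beyond their spread, and the remaining 5 lay at or under 0.494 RPKM.

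Between the control groups, 8 of the 10 mucins were called, meaning a false discovery rate (FDR) under 0.05 and a log2 fold change beyond 1 in either direction, where 45.8% of all 17921 genes tested were called (21.6% higher, 24.2% lower). Higher in HT-29 were MUC2 (63.9-fold, FDR = 2.27e-21), MUC5AC (48.5-fold), MUC5B, MUC20 (13.4-fold), MUC12 (3.70-fold), MUC13 (2.30-fold) and MUC1 (2.29-fold, FDR = 0.00849). Lower was MUC17, by 4.86 on the log2 scale (SE 0.12, FDR = 4.04e-28). MUC3A differed by −0.41 (SE 0.11) and MUC4 by −0.29 (SE 0.42), neither called. MUC5B had 19, 34 and 21 counts in HT-29 controls and 2, 1 and 0 in Caco-2 controls, all under the floor of 3 counts, so no fold is given. The fold for MUC2 rests on 2, 6 and 9 counts in Caco-2. The call for MUC1 was lost without the third Caco-2 control (log2 fold change 0.91, FDR = 0.057). By class, 3 of 3 gel-forming mucins were higher in HT-29, and of 7 transmembrane mucins 4 were higher and 1 lower.

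**Figure D1:**
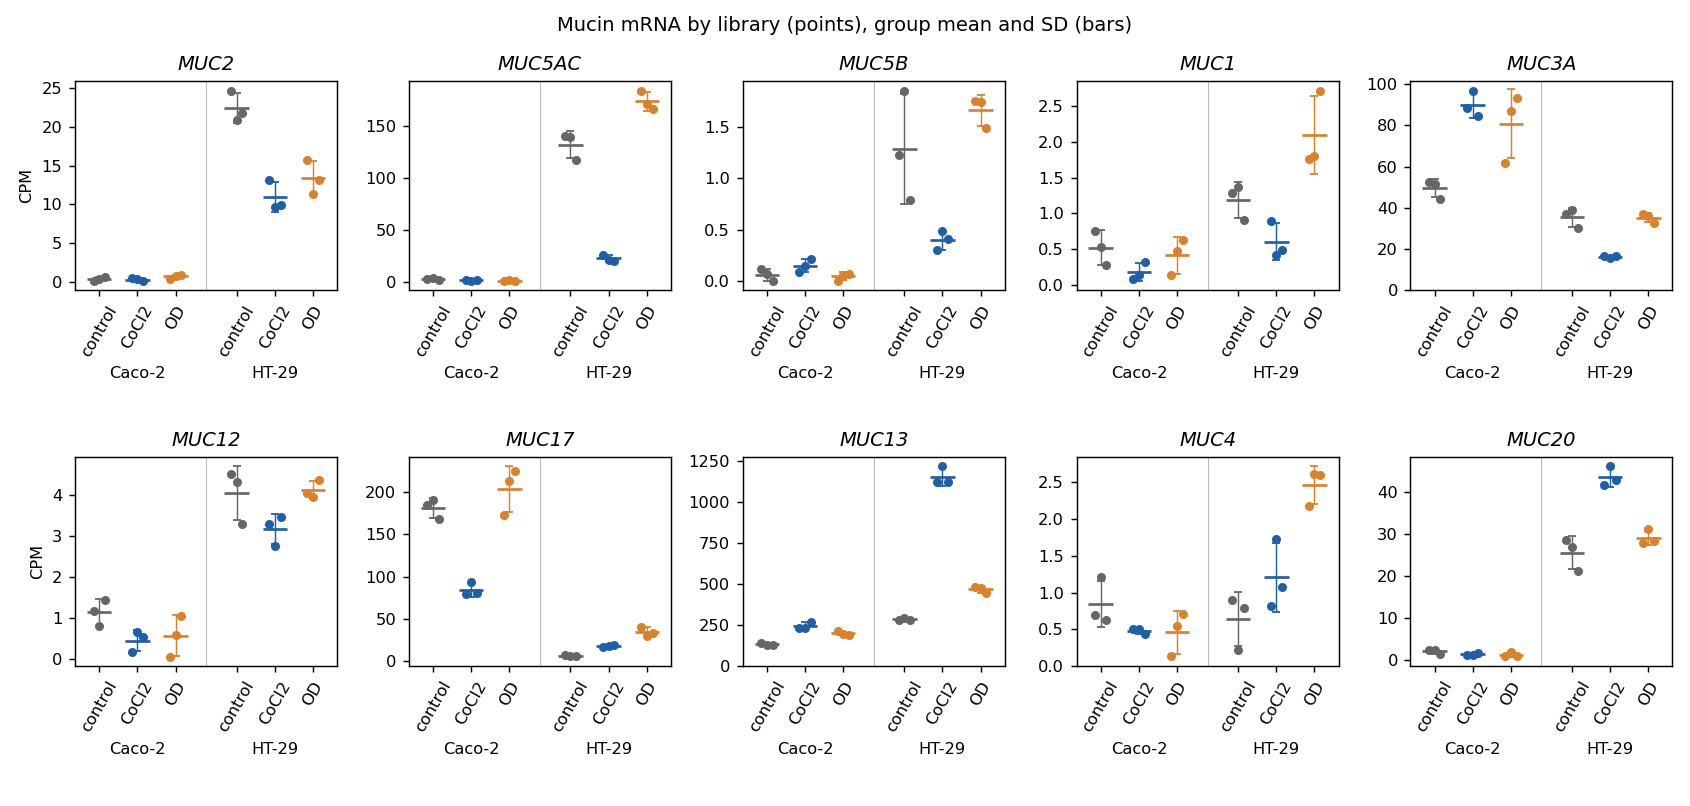
Level of each mucin in CPM (y axis, linear, scale set per gene) in the 6 groups (x axis). Points are libraries, horizontal bars the group mean and vertical bars the SD (n = 3). MUC13 reached 1124 to 1224 CPM in HT-29 under CoCl2, MUC5AC fell there to 20.1 to 26.1 CPM, and MUC17 was highest in Caco-2 and lowest in HT-29 controls.

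MUC5AC, in HT-29 under CoCl2, had the largest loss among the mucins tested against control. In HT-29 controls it stood at 140, 139 and 117 CPM, under CoCl2 at 26.1, 21.2 and 20.1, and under OD at 184, 171 and 166. The 3 groups did not overlap. CoCl2 lowered it by 2.55 on the log2 scale (SE 0.08, FDR = 1.43e-20), and the 0.40 by which OD exceeded control (SE 0.07, FDR = 6.06e-06) stayed under the fold limit. In Caco-2 MUC5AC was scarce, at 2.91, 3.76 and 1.94 CPM in controls, 1.67, 0.945 and 1.24 under CoCl2 and 0.807, 1.44 and 1.13 under OD. Every treated library there lay below every control, and both differences were called (−1.17, SE 0.32, FDR = 0.00235 and −1.34, SE 0.32, FDR = 0.00122). The CoCl2 call was lost without the second Caco-2 control (−0.94, FDR = 0.03). With limma on the deposited log2 values neither Caco-2 difference passed the fold limit, whether the pseudocount was 1 or 0.1. Both outweigh or come near these levels, which lay under 0.2 RPKM.

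MUC2 was lowered by CoCl2 in HT-29. It stood at 24.7, 20.9 and 21.8 CPM in controls, 13.1, 9.68 and 9.96 under CoCl2 and 15.7, 11.3 and 13.1 under OD. Both treated groups lay below all controls and overlapped each other. The CoCl2 difference was −1.03 (SE 0.11, FDR = 4.50e-09) and was called, but lay so near the fold limit that leaving out HT-29 control 1, CoCl2 2 or CoCl2 3 brought it to between −0.94 and −0.97, and limma on the deposited log2 values gave −0.63. The OD difference was −0.73 (SE 0.10, FDR = 6.30e-07) and was not called. In Caco-2 MUC2 never exceeded 13 counts in a library, and no change was detectable at this depth.

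MUC5B, a gel-former of airway and salivary glands, stood at 1.23, 1.86 and 0.788 CPM in HT-29 controls, 0.299, 0.484 and 0.412 under CoCl2 and 1.76, 1.75 and 1.49 under OD. The CoCl2 libraries, with 4, 7 and 5 counts, lay below the rest, and the difference from control was called (−1.61, SE 0.40, FDR = 5.81e-04). In Caco-2 it had 0 to 4 counts in every library and was not tested against control. MUC5B-AS1, which overlaps it on the other strand, had 0 counts in all 18 libraries.

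All 3 gel-forming mucins were thus lower under CoCl2 in HT-29, and under OD none was called, beside 17.1% of all genes. Of 5 goblet markers tested there, 4 were called lower under CoCl2 (23.9% of all genes were) and 3 under OD (7.57%). The goblet markers moved in the same libraries: their summed level was 62.8 to 67.6 CPM in HT-29 controls, 22.5 to 29.8 under CoCl2 and 32.2 to 35.9 under OD, with CLCA1, ZG16 and REP15 at or under 3 counts in every one and SPINK4 in every treated one. ATOH1, the factor that commits cells to the secretory lineage, went from 3.68 ± 0.295 CPM to 0.374 ± 0.0644 under CoCl2 and 0.925 ± 0.0856 under OD. SPDEF, which drives goblet cell maturation, stood at 30.9 ± 0.938 CPM in controls, 12.5 ± 2.12 under CoCl2 (called) and 21.4 ± 1.79 under OD (not called). In the OD libraries all 3 values of MUC5AC lay above control and all 3 of MUC2 below. The part of the goblet markers in these differences was not tested.

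MUC13, first among the mucins per length, lay above control in every treated library of both lines. In HT-29 it stood at 281, 292 and 283 CPM in controls, 1124, 1224 and 1124 under CoCl2 and 483, 479 and 446 under OD. In Caco-2 the values were 138, 128 and 130, then 230, 233 and 270, then 211, 197 and 191 CPM. In both lines the order was CoCl2, OD, control with no overlap between groups. Under CoCl2 the difference in HT-29 was 4.06-fold (log2 2.02, SE 0.05, FDR = 2.20e-23) and called. The 1.86-fold difference in Caco-2 (FDR = 4.20e-10) and those under OD, 1.52-fold in Caco-2 and 1.64-fold in HT-29, passed the FDR but not the fold limit. Over the alternative analyses listed below, the log2 value under CoCl2 ran from 1.39 to 2.05 in HT-29 and from 0.57 to 0.94 in Caco-2.

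MUC17, the one mucin called lower in HT-29 than in Caco-2 controls, had called CoCl2 differences of opposite sign in the lines. In Caco-2 it stood at 185, 191 and 168 CPM in controls, 79.3, 93.8 and 80.0 under CoCl2 and 173, 213 and 225 under OD. In HT-29 it stood at 6.65, 5.41 and 5.71 CPM in controls, 16.7, 18.05 and 18.5 under CoCl2 and 40.7, 30.1 and 33.5 under OD. CoCl2 thus lowered MUC17 in Caco-2 (−1.10, SE 0.09, FDR = 2.23e-10) and raised it in HT-29 (1.59, SE 0.12, FDR = 2.45e-12). OD raised it in HT-29 (2.57, SE 0.11, FDR = 2.19e-17), where the treated libraries lay above all others of that line, and in Caco-2 overlapped control (0.17, SE 0.09, FDR = 0.126). Even the highest HT-29 library stayed below the lowest Caco-2 library. With library size alone in place of scaling factors, under which the median gene fell by 0.63 in HT-29 under CoCl2, the CoCl2 difference was 0.96 and no longer called, and with limma on the deposited log2 values it was 0.62, also not called. Enterocyte markers moved in these libraries too. Their summed level was 219 to 225 CPM in HT-29 controls, 40.2 to 45.6 under CoCl2 and 97.3 to 106 under OD, with 4 of 7 over 3 counts in every library and ALPI and SLC15A1 at or under 3 counts. Of the 4 tested in HT-29, 2 were called lower under CoCl2 and none higher, beside 23.9% and 17.4% of all genes. Under OD 2 were called lower and 1 higher, beside 7.57% and 9.5%. In Caco-2 the sums were 3503 to 3940, 4139 to 4842 and 3718 to 3942 CPM, most of it APOA1. Under CoCl2 there, SI and FABP2 were called lower and SLC15A1 higher, the median of the 7 was −0.47, and FABP2 had 3, 3 and 16 counts. Their part in the differences of MUC17 and the other cell-surface mucins was not tested.

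MUC3A, beside MUC12 and MUC17 on chromosome 7, took the opposite course to MUC17 under CoCl2. In Caco-2 it stood at 52.4, 51.8 and 44.4 CPM in controls, 88.2, 96.8 and 84.8 under CoCl2 and 62.0, 87.1 and 93.4 under OD. In HT-29 it stood at 37.2, 38.8 and 30.0 CPM in controls, 16.7, 15.6 and 16.5 under CoCl2 and 36.8, 36.1 and 32.8 under OD. Both treated Caco-2 groups lay above their controls, at 1.81-fold (FDR = 3.48e-07) and 1.63-fold (FDR = 1.17e-05), under the fold limit. In HT-29, CoCl2 lowered it by 1.11 on the log2 scale (SE 0.09, FDR = 9.40e-12), and the OD libraries overlapped the controls (0.01, SE 0.08). With limma on the deposited log2 values the CoCl2 difference was −0.81 and under the fold limit.

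MUC12, the middle gene of that row, was low throughout. In Caco-2 it had 20, 12 and 21 counts in controls, 2, 9 and 10 under CoCl2 and 1, 10 and 15 under OD. The CoCl2 difference was called (−1.26, SE 0.54, FDR = 0.0446), but FDR exceeded 0.05 with DESeq2 (0.066) and when CoCl2 1, CoCl2 3, control 1 or control 3 was left out (0.16, 0.073, 0.094 and 0.15). In HT-29 its levels were 4.05 ± 0.651 CPM in controls, 3.17 ± 0.360 under CoCl2 and 4.12 ± 0.216 under OD, and neither difference was called. The gene after the row, TRIM56, 26.6 kb on, differed from control by −0.51 and 0.20 in Caco-2 and by −0.54 and 0.88 in HT-29, CoCl2 before OD in each pair, and was not called.

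Among the other cell-surface mucins, MUC20 and MUC4 share a neighbourhood. MUC20, which can modulate signalling through the MET receptor, stood at 28.4, 26.9 and 21.1 CPM in HT-29 controls, 41.6, 46.1 and 42.8 under CoCl2 and 27.8, 31.0 and 28.2 under OD. The CoCl2 libraries lay above the rest, at 1.73-fold over control (log2 0.79, FDR = 1.57e-09), under the fold limit. Over the alternative analyses listed below, this log2 value ran from 0.16 to 0.87, with an FDR of up to 0.077. In Caco-2 MUC20 had 14 to 40 counts and neither difference was called. MUC20 overlaps MUC20-OT1 on the same strand and has a near-identical pseudogene, MUC20P1, so that reads may have been split among them. In HT-29, MUC20P1 had 12.6, 16.7 and 11.1 CPM and MUC20-OT1 11.8, 15.8 and 19.2 CPM on average in control, CoCl2 and OD. In Caco-2, in the same order, MUC20-OT1 had 64.3, 53.0 and 80.7 CPM, far above MUC20 itself at 1.98, 1.31 and 1.24. The comparisons of MUC20 between the lines carry this limit too, and the part of the overlap in them was not tested.

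MUC4, a membrane mucin that binds the receptor ERBB2, had only 2 to 49 counts in a library. In HT-29 it stood at 0.904, 0.219 and 0.788 CPM in controls, 0.822, 1.73 and 1.07 under CoCl2 and 2.17, 2.62 and 2.61 under OD. The OD libraries lay above all others, and the difference from control was called (1.92, SE 0.30, FDR = 2.75e-06). That under CoCl2 overlapped control (0.92, SE 0.37, FDR = 0.0247), and leaving out HT-29 control 1 or 3 or CoCl2 1 or 3 lifted it over the fold limit (1.00 to 1.18). In Caco-2 neither difference was called (−0.81, SE 0.50 and −0.86, SE 0.50).

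MUC1, the epithelial mucin of most glands, had 20, 25 and 24 counts in HT-29 controls, 12, 6 and 6 under CoCl2 and 34, 31 and 51 under OD. CoCl2 libraries lay below and OD libraries above the controls in CPM, by −0.93 (SE 0.36, FDR = 0.02) and 0.86 (SE 0.25, FDR = 0.00404) on the log2 scale, neither called. Without HT-29 CoCl2 1 or control 3 the CoCl2 difference passed the fold limit (−1.33 and −1.14), as it did with library size alone (−1.56) and in 1 fit of all 18 libraries (−1.05). In Caco-2 MUC1 had 1 to 13 counts and was not tested against control.

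**Figure D2:**
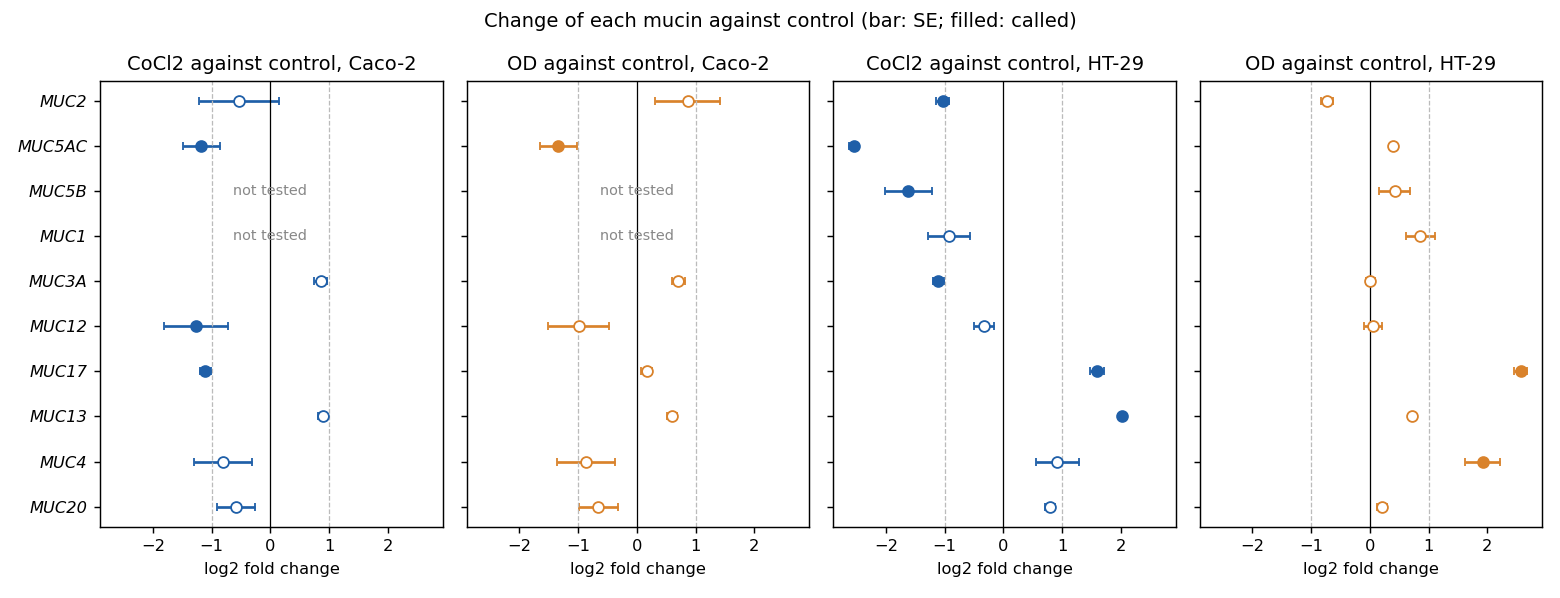
Log2 fold change against control (x axis) of each mucin (y axis) in the 4 treatment comparisons, with SE bars. Filled points were called, dashed lines mark the fold limit of 1, and CoCl2 and OD share control libraries within a line. MUC5AC lies far left and MUC13 far right under CoCl2 in HT-29, while MUC17 lies left in Caco-2 and right in HT-29.

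Counted over the family, CoCl2 changed 3 of the 8 mucins tested in Caco-2, all lower (MUC5AC, MUC12 and MUC17), where 23.4% of all 16034 genes tested were called (9.13% higher, 14.2% lower). OD changed 1 of 8 there, MUC5AC, lower, against 11.7% (4.43% higher, 7.27% lower). In HT-29, CoCl2 changed 6 of 10, with MUC13 and MUC17 higher and MUC2, MUC3A, MUC5AC and MUC5B lower, against 41.3% of 15812 genes (17.4% higher, 23.9% lower). OD changed 2 of 10 there, MUC4 and MUC17, both higher, against 17.1% (9.5% higher, 7.57% lower). The median log2 fold change of the mucins tested under CoCl2 was −0.70 in Caco-2 against −0.63 in HT-29. Under OD it was −0.24 and 0.41. The median gene lay between −0.03 and 0.01. Of 12 further mucin and mucin-like genes, 5 were tested in HT-29, and MUC6 (−2.01, SE 0.55), 38.2 kb before MUC2, and MUC16 (−2.12, SE 0.20) were lower under CoCl2. The value for MUC6 rests on 5, 15 and 18 counts in controls and 2, 1 and 3 under CoCl2, the latter all at or under the floor of 3. In Caco-2, 2 of the 12 were tested, and OVGP1, which codes for oviductal glycoprotein, was higher under CoCl2 (1.33, SE 0.23). TOLLIP, 12.2 kb after MUC5B, was higher in HT-29 under CoCl2 (1.30, SE 0.05).

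The 2 agents were also compared directly. In Caco-2 the one mucin called was MUC17, lower under CoCl2 than under OD by 1.27 on the log2 scale (SE 0.09, FDR = 6.83e-11), where 11.7% of all genes were called (5.21% higher, 6.44% lower). MUC2 (−1.40, SE 0.61, FDR = 0.0600) had 2 to 13 counts, and was called when CoCl2 1 or OD 1 was left out (FDR = 0.046 and 0.033). In HT-29, 6 of 10 were called, against 29.9% of all genes (10.8% higher, 19.2% lower). MUC13 was higher under CoCl2 (2.47-fold, FDR = 3.78e-19), and MUC5AC (−2.95, SE 0.08), MUC5B (−2.04, SE 0.38), MUC1 (−1.79, SE 0.32), MUC3A (−1.12, SE 0.09) and MUC4 (−1.005, SE 0.29) were lower. The call of MUC4 sat at the fold limit and was lost without CoCl2 1 or 3 or OD 2 or 3 (−0.78 to −0.96) and with DESeq2 (−0.99), and that of MUC13 was lost with library size alone (0.81). MUC17 came to −0.97 (SE 0.09, FDR = 5.22e-10), just under the limit, and passed it without CoCl2 3 or OD 2 or 3.

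Whether the lines responded differently was tested as an interaction over all 18 libraries, with HT-29 minus Caco-2 as the sign. For CoCl2, 7 of 10 mucins were called, against 21.6% of 17921 genes (7.79% higher, 13.8% lower). MUC17 (2.59, SE 0.16, FDR = 4.18e-15) and MUC3A (−2.08, SE 0.16, FDR = 4.76e-13) had opposite signs in the lines and differed most among the well-counted genes. MUC13 (1.02, SE 0.09) exceeded control by more in HT-29, and MUC5AC fell further there (−1.48, SE 0.31). MUC20 (1.26, SE 0.29) and MUC4 (1.62, SE 0.63, FDR = 0.0317) differed from control positively in HT-29 and negatively in Caco-2. None of these differences within a line was called, and in Caco-2 the FDR was 0.123 and 0.157. The CoCl2 libraries of MUC20 in Caco-2 and of MUC4 in HT-29 overlapped control. The value for MUC5B (−2.93, SE 1.05, FDR = 0.0197) rests on 0 to 4 counts in Caco-2. Calls were lost for MUC4 without Caco-2 CoCl2 3, Caco-2 control 2, HT-29 CoCl2 2 or HT-29 control 2 (1.24 to 1.53), for MUC5B without Caco-2 CoCl2 3 or control 3 (FDR = 0.13 and 0.056), and for MUC13, at the fold limit, without any of 5 libraries (0.98 to 1.00) or with library size alone (0.82, with MUC4 at 1.42).

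For OD, 4 of 10 were called, against 15.2% (8.96% higher, 6.24% lower). MUC4 (2.77, SE 0.59), MUC17 (2.38, SE 0.15, FDR = 1.29e-14) and MUC5AC (1.72, SE 0.28, FDR = 4.75e-06) responded more positively in HT-29. MUC2 (−1.63, SE 0.51, FDR = 0.00961) responded more negatively, and that call was lost without the first Caco-2 control (−1.16, FDR = 0.071). For MUC13 the 2 responses to OD differed by 0.10 (SE 0.09, FDR = 0.408). MUC12 and MUC20 passed both limits without Caco-2 OD 3 (1.72) and without Caco-2 OD 2 or control 3 (1.22 and 1.02).

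**Figure D3:**
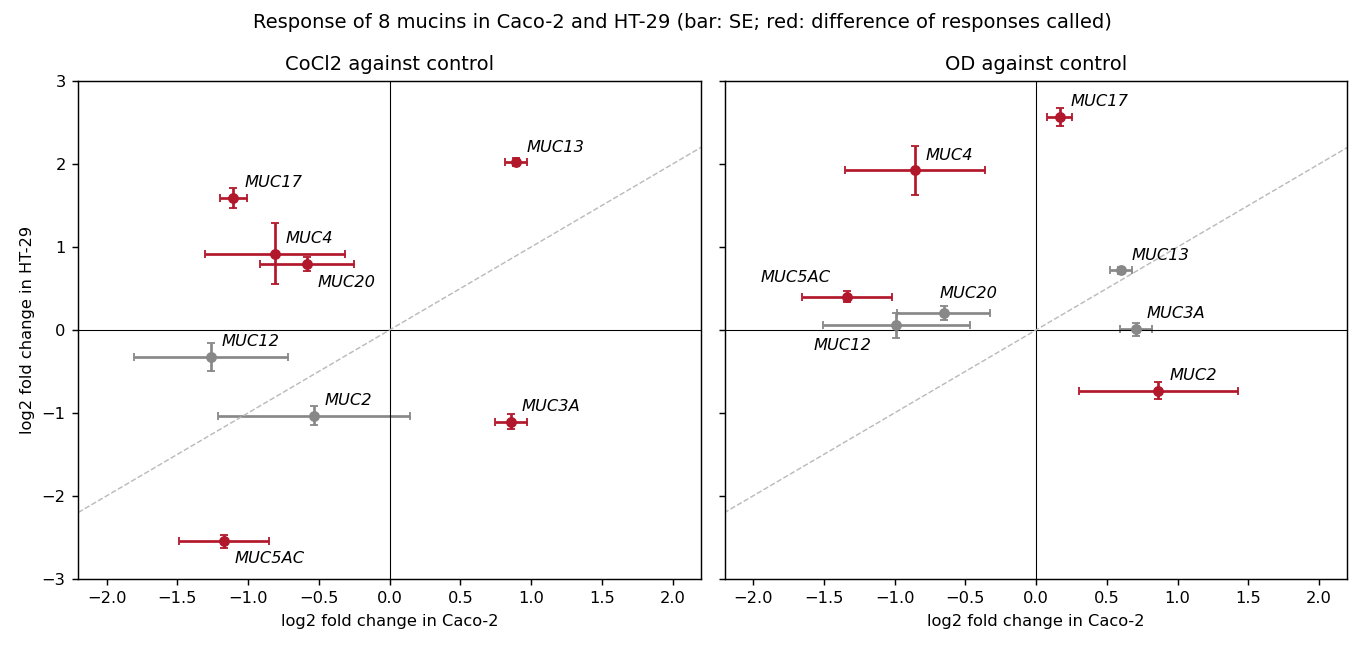
Log2 fold change against control in Caco-2 (x axis) and in HT-29 (y axis) of the 8 mucins tested in both lines, for CoCl2 (left) and OD (right), with SE bars. The dashed diagonal marks equal responses, and red points are those whose difference of responses was called. Under CoCl2, MUC17 lies in the upper left and MUC3A in the lower right, opposite in sign between the lines.

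Added up per length, the 10 mucins came to 55.5 ± 2.24 RPKM in Caco-2 controls, 84.4 ± 5.99 under CoCl2 and 79.0 ± 0.704 under OD. In HT-29 they were 99.5 ± 2.80, 344 ± 16.6 and 157 ± 6.53 RPKM. Most of this was MUC13, whose share was 68.3% ± 1.77, 83.2% ± 1.95 and 72.7% ± 4.32 in the Caco-2 groups. The HT-29 groups, in the same order of control, CoCl2 and OD, had shares of 82.4% ± 1.60, 96.6% ± 0.151 and 85.9% ± 0.397. In Caco-2 the share of MUC17 went from 22.4% ± 1.11 to 6.87% ± 0.896 under CoCl2 and was 17.6% ± 2.26 under OD. In HT-29 the gel-forming mucins together held 9.50% ± 0.663 in controls, 0.638% ± 0.113 under CoCl2 and 7.11% ± 0.284 under OD. The HT-29 sums under CoCl2 lay above those of the other groups and were almost wholly of transmembrane mucins. These sums compare mRNA, not protein, and MUC13 has a far shorter message than the other well-expressed members. The size of the sums also rests on the scaling factors, with a mean of 0.770 in HT-29 under CoCl2 and 1.19 in its controls. These factors were set within each line, so sums of different lines are compared only roughly.

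**Figure D4:**
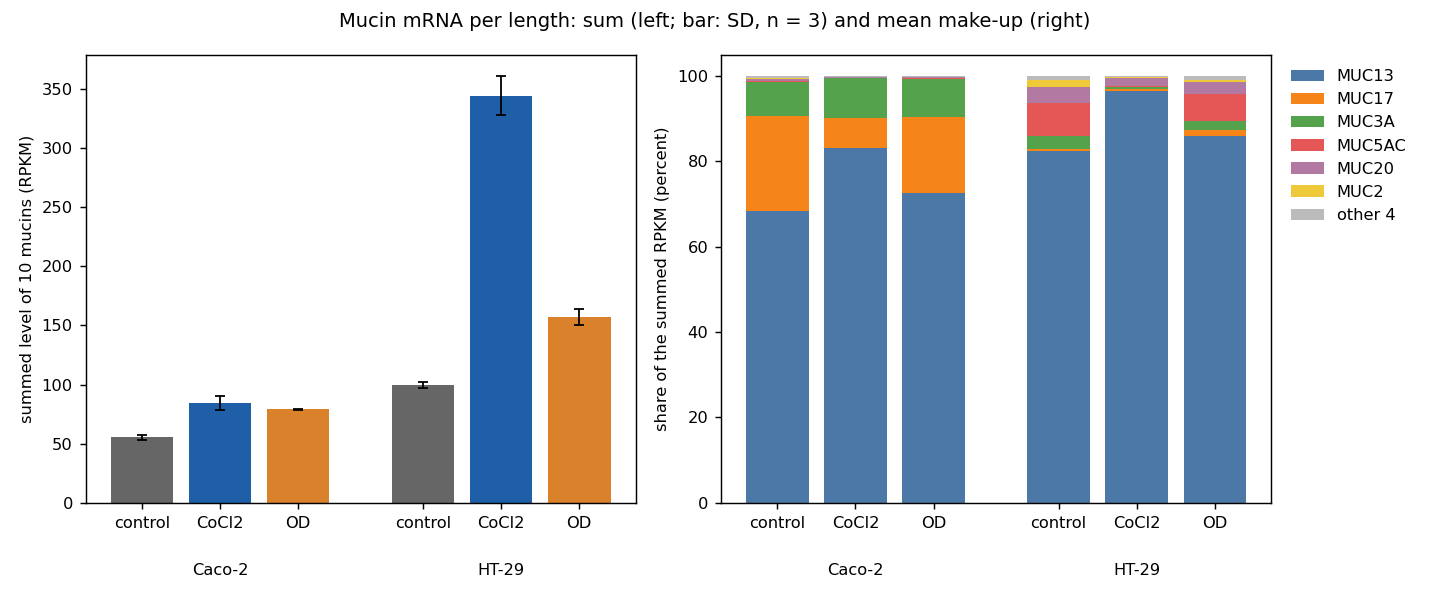
Left, summed level of the 10 mucins in RPKM (y axis from 0) by group, with the SD over 3 libraries. Right, mean share of each mucin in that sum in percent. MUC13 fills 96.6% of the sum in HT-29 under CoCl2, and the MUC17 share of Caco-2 shrinks from 22.4% to 6.87%.

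The enzymes and factors that build and export mucins gave the surroundings of these differences. Of GALNT genes, which add the first sugar, 3 of 10 tested were called in Caco-2 under CoCl2, near the 23.4% of all genes. GALNT3 rose from 87.3 ± 4.14 to 227 ± 17.1 CPM and was also higher under OD (204 ± 16.2), while GALNT5 fell by 1.97 and GALNT12 by 1.04 on the log2 scale under CoCl2. In HT-29 under CoCl2, 4 of 12 were lower (23.9% of all genes were), among them GALNT12 (−1.42), GALNT7 (−1.36) and GALNT10 (−1.07). Under OD 0 of 12 were called there, beside 17.1% of all genes.

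Among core and extension enzymes, GCNT3, which makes the branched cores typical of secreted mucins, rose in Caco-2 from 8.46 ± 1.66 CPM to 79.8 ± 8.61 under CoCl2 (3.23, SE 0.16, FDR = 1.15e-14) and to 40.6 ± 11.7 under OD (2.25, SE 0.16, FDR = 4.30e-11). In HT-29 it differed from control by 0.64 under CoCl2 and −0.23 under OD on the log2 scale, neither called. B4GALNT2, which forms the Sda antigen, fell by 1.93 in Caco-2 under CoCl2. In this list 2 of 9 genes were called in each CoCl2 comparison, no larger a share than the 23.4% (Caco-2) and 41.3% (HT-29) of all genes. Under OD 2 of 9 were called in Caco-2, beside 11.7%, and 3 of 9 in HT-29, beside 17.1%.

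Of the sialylation and fucosylation genes, 4 of 13 were lower in Caco-2 and 7 of 15 in HT-29 under CoCl2, beside 14.2% and 23.9% of all genes. None was higher, beside 9.13% and 17.4% of all genes. FUT2, the secretor fucosyltransferase, fell by 1.38 and 2.16, and ST3GAL2, a sialyltransferase, by 1.18 and 2.11. ST6GAL1 fell by 1.17 under OD in Caco-2, and by 2.71 under CoCl2 and 1.64 under OD in HT-29. Under OD 1 of 13 was lower in Caco-2 (7.27% of all genes). In HT-29 under OD 3 of 15 were lower (7.57%), FUT4 (−1.10) among them, and 1, ST6GALNAC4 (1.23), higher (9.5%).

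Of the genes for mucus companions and secretion, 6 of 11 were lower in HT-29 under CoCl2 and none higher, beside 23.9% and 17.4% of all genes, with a median of −1.23. They included SYTL2 (−1.98) and RAB27A (−1.23), which tether and dock secretory granules, and FCGBP (−1.41), a protein bound into the mucus gel. Under OD 3 were lower (7.57% of all genes) and 1 higher (9.5%), and FCGBP fell by 1.63. In Caco-2 3 of 12 were lower and 1 higher under CoCl2, beside 14.2% and 9.13%, and 2 lower and 1 higher under OD, beside 7.27% and 4.43%. There RAB27A fell under both (−1.22 and −1.07), TFF2 under CoCl2 (−1.42), and ZG16, a goblet lectin, rose from 13.3 ± 2.60 CPM to 35.8 ± 4.06 and 41.9 ± 3.03.

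Transcription factors of the secretory and enterocyte programmes were lower in HT-29 under CoCl2 in 9 of 15 cases and higher in none, with a median of −1.41. Over all genes 23.9% were lower and 17.4% higher, with a median of −0.03. FOXA3 (−2.54), CREB3L1 (−1.54) and FOXA1 (−1.50) led the well-counted ones, and ATOH1 and SPDEF of this list are also goblet markers, as FCGBP, TFF3, ZG16 and SPINK4 of the previous one are. Under OD 3 of 15 were lower (7.57% of all genes), FOXA1 (−1.17) among them. In Caco-2 FOXA1 fell by 1.60 under CoCl2, 1 of 2 called lower of 13, near the 14.2% of all genes. Under OD 1 of 13 was called there, KLF4, higher by 1.71, beside 11.7% of all genes.

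Of binding partners and proteases, LGALS3, a galectin that crosslinks mucin sugars, rose by 1.13 in Caco-2 under CoCl2, and EGFR (−1.24), ERBB3 (−1.32) and GOPC (−1.15) fell, 4 of 12 called beside 23.4% of all genes. Under OD 0 of 12 were called there, beside 11.7% of all genes. In HT-29 the protease ADAM17, which can shed transmembrane mucins, rose under both agents (1.68 and 1.25), and PDZK1, a scaffold of the microvilli, fell under both (−2.46 and −1.35). EGFR (−1.72) and ERBB2 (−1.20) fell there under CoCl2. In HT-29 4 of 12 were called under CoCl2 and 2 under OD, beside 41.3% and 17.1%.

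**Figure D5:**
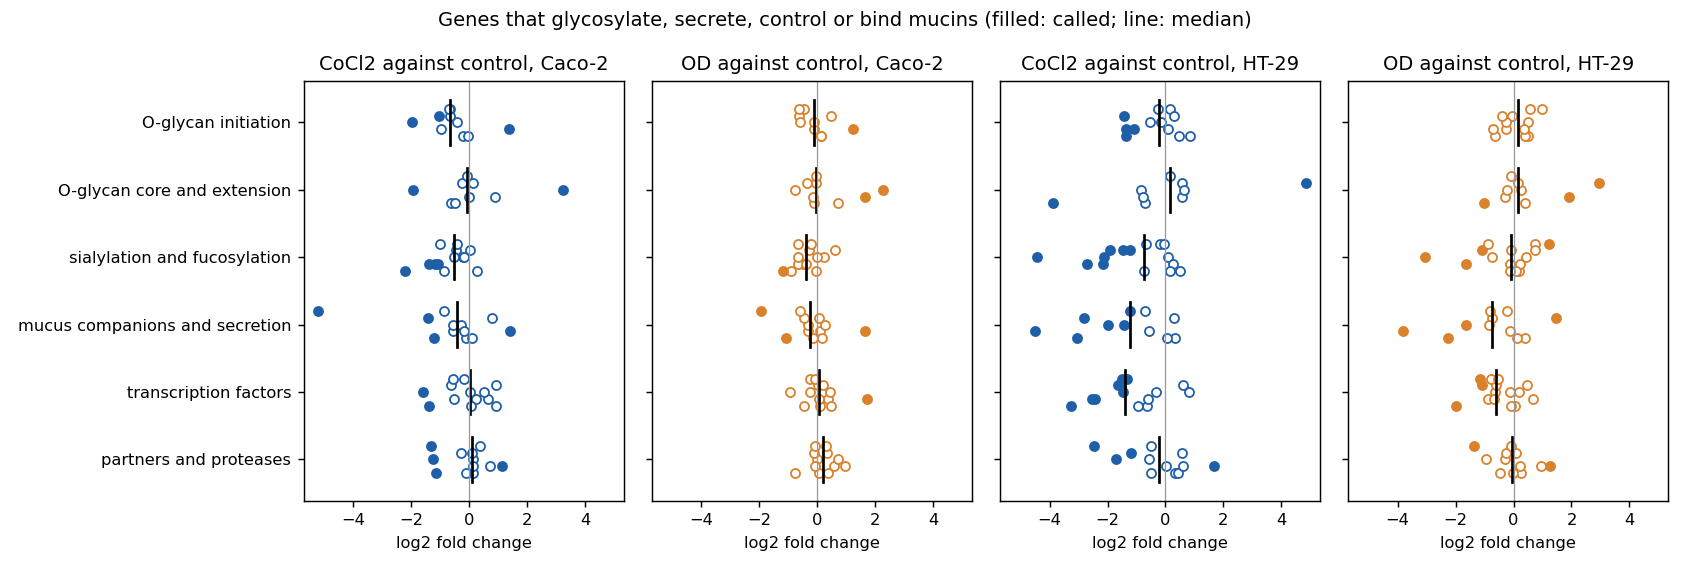
Log2 fold change against control (x axis) of single genes in 6 lists around mucin synthesis (y axis) in the 4 comparisons. Filled points were called, black lines are list medians, and vertical scatter within a row only separates points. The medians of the transcription factors and of the mucus companions lie left of 0 in HT-29 under CoCl2, at −1.41 and −1.23.

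The genes most like each mucin were sought over the 18 libraries by Pearson's r of log2 CPM after subtracting each line's mean, among 10436 genes. The 18 points share 6 groups and their control libraries, so the values describe likeness and carry no test. MUC13 was closest to SERTAD2, CCDC93 and NBAS, each at r = 0.99, and 1171 genes exceeded 0.9. MUC5AC was closest to AC068888.1, BCAS4 and MARVELD1 (r = 0.97 each, 223 genes over 0.9). MUC17 had 59 such genes, led by KIAA0513 and ACTN1 (r = 0.97), and MUC3A had 21, led by MFSD6 and GFOD2 (r = 0.93). For MUC2, MUC4, MUC12 and MUC20 no gene exceeded 0.9.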

How the data were processed

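Of the 36 libraries labelled, the 18 mRNA libraries were used and the 18 miRNA libraries were not. Of these the authors deposited 2 tables, one of unnormalised counts for each gene and one that, recomputed from those counts, holds log2 of RPKM plus 1. Per the study's methods and the submitters' processing notes, single-end reads of 75 bases were trimmed with cutadapt 2.10, aligned with STAR 2.7.5b to GRCh38.p13 and counted on GENCODE 34. The counting tool, its use of strand and its treatment of reads that match several places, as in mucin tandem repeats, are not given in the sources used here.

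Groups came from the labels. Each line was fitted over its 9 libraries with edgeR 4.0.16 (R 4.3.3), using TMM scaling, filterByExpr and the two-sided quasi-likelihood F test. P-values were adjusted by Benjamini-Hochberg over all genes tested (FDR). A gene was called at an FDR under 0.05 and an absolute log2 fold change over 1, the study's thresholds. Interactions and the comparison of control groups used all 18 libraries. The script was tested on simulated counts with only 200 genes changed, all by 2 on the log2 scale and as many up as down. Of those tested, 96.4% were recovered for CoCl2 in Caco-2 (16034 genes), 98.5% for CoCl2 in HT-29 (15812 genes) and 87.2% for the CoCl2 interaction (17921 genes). In the data far more genes were called, and several mucins lay near the fold limit of 1. The simulation covers neither case.

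RPKM used the lengths implied by the deposited table, or GENCODE v44 exons for MUC1, MUC4 and MUC5B. A count of 3, the floor used here, was worth 0.113 to 0.250 CPM. Replicates differed by more than sampling noise in every pair (chi-square per degree of freedom 1.96 or more). The value was highest for pairs with the first library of a treated Caco-2 group. It was 8.79 and 10.7 for CoCl2 1, and 9.51 and 12.6 for OD 1. Libraries 2 and 3 of these groups gave 3.42 (CoCl2) and 3.43 (OD). Alternatives were library size alone, DESeq2 1.42.0 and its size factors, no filter, a replicate block, FDR alone, limma 3.58.1 on the deposited log2 values with a pseudocount of 1 or 0.1, 1 fit of all libraries and leaving out each library. Beside all 10 mucins, list genes were named when called, with a mean of at least 100 counts and no overlap, up to 3 at each end per list and comparison. MUC6, MUC16, OVGP1 and the HT-29 values of GCNT3 lie outside that rule and were named after their values were seen. The members and lists were chosen with earlier results of these data known.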

Additional observations from a re-analysis of the deposited data

Results flagged for a closer look

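The mucins flagged are those whose response to an agent differed between Caco-2 and HT-29 by the interaction test over 18 libraries (edgeR, FDR under 0.05 and absolute log2 difference over 1, HT-29 minus Caco-2). Under CoCl2 these were MUC17 (2.59), MUC3A (−2.08), MUC4 (1.62), MUC5AC (−1.48), MUC20 (1.26), MUC13 (1.02) and MUC5B (−2.93). Under OD they were MUC4 (2.77), MUC17 (2.38), MUC5AC (1.72) and MUC2 (−1.63). The Caco-2 side of MUC5B, MUC4 and MUC2 rests on at most 18 counts in a library. The lines also differ in culture state, and the 2 cannot be told apart.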

How the results depend on the processing

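The number of mucins called is given here in the order CoCl2, OD and CoCl2 against OD in Caco-2, the same in HT-29, the CoCl2 and OD interactions, and the control groups. With edgeR as reported it was 3, 1, 1, 6, 2, 6, 7, 4 and 8. Leaving out each library in turn gave 2 to 3, 1 to 2, 1 to 2, 5 to 8, 2 to 2, 5 to 6, 5 to 7, 3 to 5 and 7 to 8. Replicate numbers did not pair the libraries (correlations of same-numbered libraries from −0.0554 to 0.0676 in Caco-2 and −0.0369 to 0.0245 in HT-29), and the replicate block gave the same 9 counts.

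With FDR alone, 5 mucins passed for CoCl2, 3 for OD and 2 for CoCl2 against OD in Caco-2. In HT-29, 7 passed for OD and 10 for CoCl2 against OD. All but MUC12 (FDR = 0.0788) passed for CoCl2 in HT-29, and all but MUC4 (FDR = 0.536) between the control groups. MUC3A and MUC20 were added in the OD interaction. For the alternatives that follow, smaller moves of a count are not listed. With limma on the deposited log2 values and a pseudocount of 1, which leaves 5 mucins in Caco-2 and 7 in HT-29, Caco-2 kept 1 for CoCl2 and 0 for OD, and HT-29 gave 2, 1 and 2. A pseudocount of 0.1 gave 1 and 0 in Caco-2, while HT-29 gave 1 for OD and 3 for CoCl2 against OD. CoCl2 against OD in Caco-2 gave 2 with library size alone and with 1 fit of all libraries, MUC2 being added.

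All reversals concerned values that were not called. For CoCl2 against OD in Caco-2, library size alone gave −0.0185 for MUC3A, −0.12 for MUC4, −0.0054 for MUC5AC and −0.10 for MUC20. Leaving out a library gave −0.36 to 0.45 for MUC4, −0.0322 to 0.39 for MUC5AC, −0.78 to 0.43 for MUC12 and −0.0870 to 0.45 for MUC20. For OD in HT-29, MUC3A came to −0.13 with library size alone, −0.0121 with DESeq2 size factors, −0.0181 with DESeq2, −0.0176 and −0.0210 with limma at a pseudocount of 1 and 0.1, −0.0101 in 1 fit of all libraries, and −0.11 to 0.0812 without a library. MUC12 came to −0.0785 with library size alone and −0.10 to 0.14 without a library. Without a library, MUC2 under CoCl2 in Caco-2 came to −0.99 to 0.0105 and the CoCl2 interaction of MUC1 to −0.0823 to 1.08. MUC4 between the control groups came to 0.21 with the replicate block and to −0.55 to 0.0906 without a library. In these, the cause was not tested.

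Library size alone moved the median gene under CoCl2 by −0.32 (Caco-2) or −0.63 (HT-29) and under OD by −0.15 or −0.14. It also turned 1464 higher and 2283 lower genes into 870 and 3546 for CoCl2 in Caco-2, 711 and 1165 into 500 and 1644 for OD there, 2749 and 3775 into 1295 and 6250 for CoCl2 in HT-29, and 1502 and 1197 into 1225 and 1596 for OD there. Depth limits MUC1, MUC2, MUC4, MUC5B and MUC12 in Caco-2, each at 21 counts or fewer in a library.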
